A study of Mus musculus with 10 samples.

Results

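NF-κB is a family of transcription factors that switch on immune, survival and adhesion genes, and the array data of spontaneous mouse lymphomas are described here for 10 of its genes: the subunits Nfkb1, Nfkb2, Rel, Rela and Relb, the inhibitors Nfkbia, Nfkbie and Tnfaip3, the nuclear cofactor Bcl3 and the target Icam1. Members were chosen by name: every non-control probe that the array files assign to one of these symbols was taken, which gave 15 of 41174 probes, for 10 of the 27827 gene names on the array. Of these, 14 probes for 9 genes were tested, which took a signal well above background in 3 or more of the 10 tumours, and the single Rel probe was not. The study compared lymphomas of mice carrying 1 LIP allele and 1 wild-type allele of C/EBPβ (+/L, n = 5) with lymphomas of wild-type mice (+/+, n = 5). C/EBPβ is a transcription factor, and LIP is its short isoform, which keeps the DNA-binding part and lacks most of the activating part. No mouse was given a drug or a transplant: tumours arose by themselves in an ageing cohort, and each array holds bulk total RNA of 1 tumour from 1 mouse. The +/L mice were 11 to 21 months old (18.0 ± 4.06, SD, n = 5) and the +/+ mice 20 to 29 months (24.9 ± 3.47, SD, n = 5), so genotype and age differed together. By label 4 +/L and 3 +/+ mice were female. Because the tumours are bulk tissue, fewer cells of a type and less RNA per cell cannot be told apart.

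In resting cells, NF-κB dimers are held in the cytoplasm by inhibitors of the IκB family. In the canonical arm, signals from tumour necrosis factor, Toll-like or antigen receptors lead to degradation of the inhibitors Nfkbia (IκBα) and Nfkbie (IκBε), which frees dimers of Rela or Rel with the processed product of Nfkb1. In the alternative arm, receptors such as CD40 or the lymphotoxin β receptor cause the Nfkb2 precursor to be processed, and its product acts together with Relb. Nfkb2, Relb, Nfkbia, Nfkbie, Tnfaip3 and Icam1 are themselves textbook target genes of the pathway, and B cells rely on both arms to mature and survive.

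Start-site windows of the feedback genes are shown for their matches to the κB consensus, the DNA motif that NF-κB dimers bind. RefSeq promoter windows (build GRCm38.p6, 250 bases before each annotated start) were at hand for 8 of the 10 genes, in 11 windows, and were searched on both strands for the 10-base κB consensus. A match was present in 7 of 11 windows and in 5 of 8 genes (Nfkb2, Nfkbia, Nfkbie, Tnfaip3 and Rel), against 7.25% of all 32851 windows and 8.23% of 27025 gene symbols in the table. The windows of Bcl3, Icam1 and Rela held no match, which says only that these letters are not in those 250 bases. The first windows of the 4 measured genes with a match are printed 5′ to 3′ along the gene's own strand, with each match, on either strand, in capitals. They end at the base before the annotated start.
Nfkbia, chr12:55492648-55492897, minus strand: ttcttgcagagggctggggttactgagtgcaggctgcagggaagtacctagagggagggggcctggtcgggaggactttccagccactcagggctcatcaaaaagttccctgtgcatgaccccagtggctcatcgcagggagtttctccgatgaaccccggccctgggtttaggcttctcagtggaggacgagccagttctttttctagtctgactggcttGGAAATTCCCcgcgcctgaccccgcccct
Nfkbie, chr17:45555450-45555699, plus strand: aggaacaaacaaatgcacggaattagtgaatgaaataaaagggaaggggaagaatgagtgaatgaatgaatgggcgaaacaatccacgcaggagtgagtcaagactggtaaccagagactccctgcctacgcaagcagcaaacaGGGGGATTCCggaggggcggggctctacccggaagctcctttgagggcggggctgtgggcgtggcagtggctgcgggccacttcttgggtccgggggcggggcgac
Tnfaip3, chr10:19015411-19015660, minus strand: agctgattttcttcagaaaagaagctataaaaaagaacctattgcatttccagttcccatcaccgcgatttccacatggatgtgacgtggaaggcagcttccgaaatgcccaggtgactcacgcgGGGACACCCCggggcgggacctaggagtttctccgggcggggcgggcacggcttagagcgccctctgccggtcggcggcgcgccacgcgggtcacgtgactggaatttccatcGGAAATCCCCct
Nfkb2, chr19:46304487-46304736, plus strand: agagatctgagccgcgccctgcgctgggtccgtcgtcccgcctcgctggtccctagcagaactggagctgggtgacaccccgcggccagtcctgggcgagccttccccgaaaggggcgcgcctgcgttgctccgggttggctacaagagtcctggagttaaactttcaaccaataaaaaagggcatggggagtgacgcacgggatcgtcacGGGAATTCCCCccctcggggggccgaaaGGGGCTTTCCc
The Nfkbia match lies 29 to 20 bases before the start and the Nfkbie match 106 to 97 bases before it. Tnfaip3 has matches at 125 to 116 and at 12 to 3 bases before the start. In the Nfkb2 window, overlapping matches lie 39 to 29 bases and a further one 11 to 2 bases before the start. A match is a description of the sequence, and the arrays did not measure binding there.

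Each value below is a log2 signal minus the 75th percentile of its array, so 0 is the array's 75th percentile and 1 unit is a doubling. Levels are compared between tumours for 1 probe at a time, since probes differ in brightness for the same amount of RNA. For a gene with several probes, the lead probe is the tested one with the highest mean. Genome positions of probes are those of the array files (build mm9). To show what the arrays read, these are the 60-base probe sequences, as the files give them, of a Rela probe (chr19:5647136-5647195), the Nfkbia probe (chr12:56590945-56591440), the Nfkb2 probe (chr19:46386146-46386285) and an Icam1 probe (chr9:20832290-20832349).
Rela A_52_P186119: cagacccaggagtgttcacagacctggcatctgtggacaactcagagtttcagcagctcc
Nfkbia A_51_P295192: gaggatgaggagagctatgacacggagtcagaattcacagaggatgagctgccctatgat
Nfkb2 A_51_P454217: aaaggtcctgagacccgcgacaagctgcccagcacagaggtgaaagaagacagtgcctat
Icam1 A_52_P613241: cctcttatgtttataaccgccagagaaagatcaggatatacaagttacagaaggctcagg
The Nfkbia and Nfkb2 intervals are longer than the probe, so those probes match the genome in more than 1 block. No exon or UTR annotation of build mm9 was used here, so positions are given without it.

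Across the 10 arrays, between 48.0% and 66.7% of non-control spots were well above background and none was saturated. Of the lymphoid marker genes, 13 of 14 B cell markers and 13 of 14 T cell markers were well above background in all 10 tumours. This shows lymphoid RNA on each array and cannot test the lymphoma label or the lineage of a tumour. The mean marker score, in log2 units around each gene's mean, spanned -1.61 to 0.85 in +/L tumours and -0.09 to 0.34 in +/+ tumours for B cells, with -1.69 to 0.80 and -0.91 to 1.42 for T cells. Sex-linked transcripts went against the sex label in 2 mice, +/L mouse 20 and +/+ mouse 11. Without both of them all 9 lead probes still had a lower mean in +/L (differences -0.80 to -0.36). The subset of mice labelled female, used below, leaves out both of these mice and also +/+ mouse 101, labelled male. Mouse 20 was the lowest tumour for 8 of 9 genes and mouse 101 the highest for 5 of 9. Values in that subset therefore also reflect the loss of these tumours, and an effect of sex was not tested. By the file headers the arrays lay on 3 slides, each holding both genotypes. The description labels instead put 3 +/L tumours with 1 +/+ tumour on slide 1 and 3 +/+ tumours alone on slide 3, and which is right is not known.

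Among the canonical subunits, Rela read lower in every +/L tumour than in every +/+ tumour, and Nfkb1 overlapped between the genotypes. Rela encodes the main transactivating subunit of the canonical dimer. Its lead probe (A_51_P385993, chr19:5647632-5647691, plus strand) read 3.14, 3.37, 3.98, 3.74 and 3.67 in +/L mice 20, 866, 688, 23 and 517. The +/+ mice 40, 11, 101, 17 and 19 read 4.41, 4.04, 4.56, 4.05 and 4.93, and both orders of mice are kept throughout. The highest +/L tumour, mouse 688, thus stood just under the lowest +/+ tumour, mouse 11. The means were 3.58 ± 0.33 and 4.40 ± 0.37 (SD, n = 5 each), a difference of -0.81 ± 0.24 (SE, 95% interval -1.35 to -0.27) or 1.76-fold. The difference had an unadjusted p of 0.00702 and an exact two-sided permutation p of 0.00794, the smallest that 5 against 5 allows, but an adjusted p of 0.594 by limma with Benjamini-Hochberg correction over all 26409 tested probes. The second Rela probe, whose sequence is printed above and which is spotted 10 times per array, gave means of -0.0031 ± 0.28 and 0.78 ± 0.31 and a difference of -0.78 ± 0.22 (limma unadjusted p = 0.00482, adjusted p = 0.594). It put the 10 tumours in the same order as the lead probe (r = 0.994, rho = 1, permutation p = 1e-05, the smallest that 100000 resamples give).

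Nfkb1 encodes the precursor of the small DNA-binding subunit of the canonical dimer. Its lead probe (A_51_P283759, chr3:135247710-135247771, minus strand) read 0.019, 0.85, 0.997, 1.23 and 1.23 in +/L and 1.91, 1.05, 1.02, 1.53 and 1.61 in +/+. Mouse 20 was the lowest, and +/+ mice 11 and 101 fell among the +/L tumours. The difference was -0.56 ± 0.29 (SE, 95% interval -1.20 to 0.076, limma unadjusted p = 0.0784, adjusted p = 0.657), and it was -0.35 without mouse 20. On slide 2 the single +/+ tumour read 0.18 lower than the mean of the 2 +/L tumours, the other way round from slides 1 and 3.

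The 3 further Nfkb1 probes lie at chr3:135274175-135281254 and did not follow the lead probe. They correlated with it at r = -0.17, 0.37 and 0.29 over the 10 tumours (permutation p = 0.644, 0.299 and 0.444), and with each other at 0.54 to 0.80. A_52_P569539 and A_52_P582969 differed between genotypes by -0.18 and 0.53, with groups that overlapped. A_52_P32733, which was well above background in 5 of 5 +/L and 4 of 5 +/+ tumours, differed by 1.17 ± 0.59 in the direction of more signal in +/L (limma adjusted p = 0.648, exact permutation p = 0.135). Of the 3 genes with several tested probes (Nfkb1, Rela and Icam1), Nfkb1 alone had probes with differences of opposite sign, and the results below follow its lead probe. Rel, the subunit typical of lymphocytes, has 1 probe, which was well above background on 0 of 10 arrays, so no difference is given for it.

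**Figure D1:**
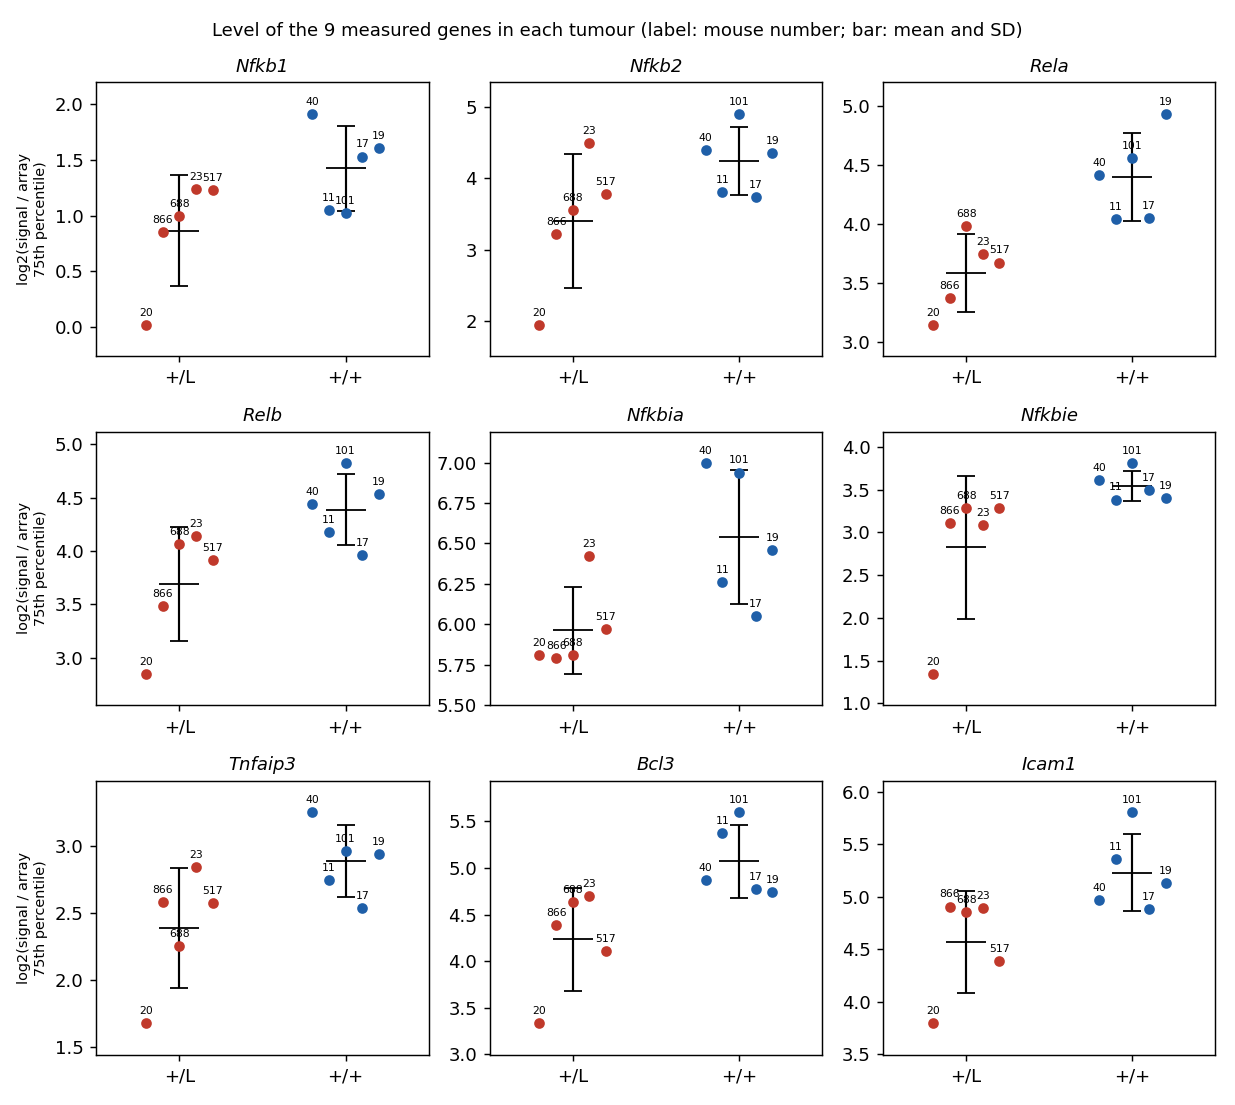
Log2 signal relative to the array's 75th percentile for the lead probe of each of 9 NF-κB genes, 1 point per tumour, with bars for the mean and SD of 5 tumours per genotype. The groups do not overlap for Rela, Nfkbie and Bcl3, and +/L mouse 20 is the lowest of all 10 tumours for every gene except Nfkbia.

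Both subunits of the alternative arm had lower means in +/L, and neither separated the genotypes. Relb, the transactivating partner of the processed Nfkb2 product, read 2.85, 3.49, 4.06, 4.14 and 3.91 in +/L and 4.44, 4.18, 4.82, 3.96 and 4.54 in +/+ (A_51_P389751, chr7:20191722-20191781, minus strand). Of the +/+ tumours, mouse 17 alone lay within the +/L range. The difference was -0.70 ± 0.29 (SE, 95% interval -1.33 to -0.06), with a limma unadjusted p of 0.0342, an adjusted p of 0.612 and an exact permutation p of 0.0317. It was -0.46 with normexp, -0.43 in the deposited table and -0.41 in the 7 mice labelled female. Nfkb2, the precursor gene, read 1.95, 3.21, 3.56, 4.49 and 3.78 in +/L and 4.39, 3.81, 4.90, 3.74 and 4.35 in +/+. It varied most of all 9 genes over the 10 tumours (SD 0.827, larger than that of 71.0% of tested probes), and +/L mouse 23 read higher than 4 of 5 +/+ tumours. Its difference was -0.84 ± 0.44 (SE, 95% interval -1.80 to 0.12, limma unadjusted p = 0.0810, adjusted p = 0.660). The Nfkb2 difference was -0.48 without mouse 20, -0.54 with array weights and -0.40 in the mice labelled female, and on slide 2 the means ran the other way by 0.33.

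The 3 inhibitors that feed back on the pathway also had lower means in +/L, and of them only Nfkbie separated the genotypes. Nfkbia, which holds canonical dimers in the cytoplasm and is resynthesised after activation, read 5.81, 5.79, 5.81, 6.42 and 5.97 in +/L and 6.996, 6.26, 6.94, 6.05 and 6.46 in +/+. The means were 5.96 ± 0.27 and 6.54 ± 0.42 (SD, n = 5 each). Mouse 23 stood above the other +/L tumours and overlapped with +/+ mice 11 and 17. The difference was -0.58 ± 0.24 (SE, 95% interval -1.12 to -0.04, limma unadjusted p = 0.0373, adjusted p = 0.615, exact permutation p = 0.0317). It was smaller under other processing, at -0.29 with quantile normalization, -0.36 with normexp and -0.27 in the deposited table.

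Nfkbie, a second cytoplasmic inhibitor, read 1.34, 3.11, 3.29, 3.09 and 3.29 in +/L and 3.62, 3.39, 3.81, 3.50 and 3.41 in +/+ (A_51_P235123, chr17:45700000-45700059, plus strand). The genotypes did not overlap, but the gap was narrow and mouse 20 lay far under the rest. The difference of -0.72 ± 0.36 (SE, 95% interval -1.52 to 0.09) had an exact permutation p of 0.00794 while limma gave an unadjusted p of 0.0748 and an adjusted p of 0.649. Without mouse 20 the difference was -0.35, the groups still did not overlap, and the exact permutation p was 0.0159. It was -0.47 with array weights, -0.39 without mice 20 and 11 and -0.31 in the mice labelled female. Tnfaip3, the ubiquitin-editing enzyme that shuts off signalling upstream of the inhibitors, read 1.68, 2.59, 2.26, 2.85 and 2.57 in +/L and 3.25, 2.75, 2.96, 2.54 and 2.94 in +/+. It varied least over the 10 tumours (SD 0.436), and +/+ mice 11 and 17 fell among the +/L tumours. Its difference was -0.50 ± 0.25 (SE, 95% interval -1.06 to 0.06, limma unadjusted p = 0.0730, adjusted p = 0.648), and it was -0.32 without mouse 20.

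Bcl3, a nuclear IκB protein that acts as a cofactor of the Nfkb1 and Nfkb2 products, separated the genotypes. It read 3.34, 4.39, 4.63, 4.70 and 4.11 in +/L and 4.87, 5.37, 5.60, 4.77 and 4.74 in +/+ (A_51_P136542, chr7:20393862-20393921, minus strand). Its +/L maximum, in mouse 23, lay just under its +/+ minimum, in mouse 19. The difference was -0.84 ± 0.30 (SE, 95% interval -1.51 to -0.17) or 1.79-fold, with a limma unadjusted p of 0.0188, an adjusted p of 0.595 and an exact permutation p of 0.00794. Within header slides it was -0.84, -0.97 and -0.78. In the 7 mice labelled female, which leave out mice 20, 11 and 101, it was only -0.34. It was -0.54 without mice 20 and 11 and -0.56 with array weights.

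Icam1 encodes the adhesion molecule through which leukocytes bind each other and the vessel wall. Its lead probe (A_51_P408506, chr9:20833186-20833245, plus strand) read 3.80, 4.91, 4.86, 4.89 and 4.38 in +/L and 4.97, 5.36, 5.80, 4.88 and 5.13 in +/+. Mouse 20 was the lowest and mouse 101 the highest, and only +/+ mouse 17 fell within the +/L range. The means of 4.57 ± 0.48 and 5.23 ± 0.37 differed by -0.66 ± 0.28 (SE, 95% interval -1.28 to -0.04, limma unadjusted p = 0.0386, adjusted p = 0.615, exact permutation p = 0.0238). It was -0.23 in the 7 mice labelled female and -0.44 without mice 20 and 11, and -0.42 with quantile normalization, -0.42 with normexp and -0.36 in the deposited table. The second Icam1 probe gave a difference of -0.56 ± 0.25 (limma adjusted p = 0.626) and followed the lead probe at r = 0.969. The lead probe's 10 spots per array had a median SD of 0.0447, so spot error was small beside the spread between tumours.

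Counted together, all 9 lead probes and 12 of 14 tested probes had a lower mean in +/L, where 49.5% of all tested probes did. The median lead difference was -0.70, beside 0.0055 over all tested probes. By limma, 0 of 26409 probes (0%) passed an adjusted p of 0.05 and no member did, with adjusted p of 0.594 to 0.660 for the lead probes. At an unadjusted p under 0.05, 5 of 9 lead probes (Rela, Relb, Nfkbia, Bcl3 and Icam1) were lower in +/L, beside 4.67% of all tested probes lower and 7.96% in either direction. The groups did not overlap for 3 of 9 lead probes, beside 1.22% of tested probes lower without overlap and 1.79% in either direction. With age as a covariate, 0 of 9 passed the unadjusted threshold (3.42% of all tested probes were lower at it), although all 9 differences kept their sign, with Rela at -0.81 and Nfkbia at -0.32. With the slide of the description labels as a block 0 of 9 passed too (1.58% of all), and with the header slide 3 did (3.35%). Leaving out +/L mouse 20 took the lead probes at that threshold from 5 to 2, while the share of all tested probes lower at it went from 4.67% to 9.27%. There were 2 without +/+ mouse 101 (2.73% of all) or +/+ mouse 19 (3.46%), and 7 without +/L mouse 23 (4.59%). There were 3 without +/+ mouse 40 (3.01%), +/L mouse 866 (3.78%) or +/L mouse 517 (3.14%).

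**Figure D2:**
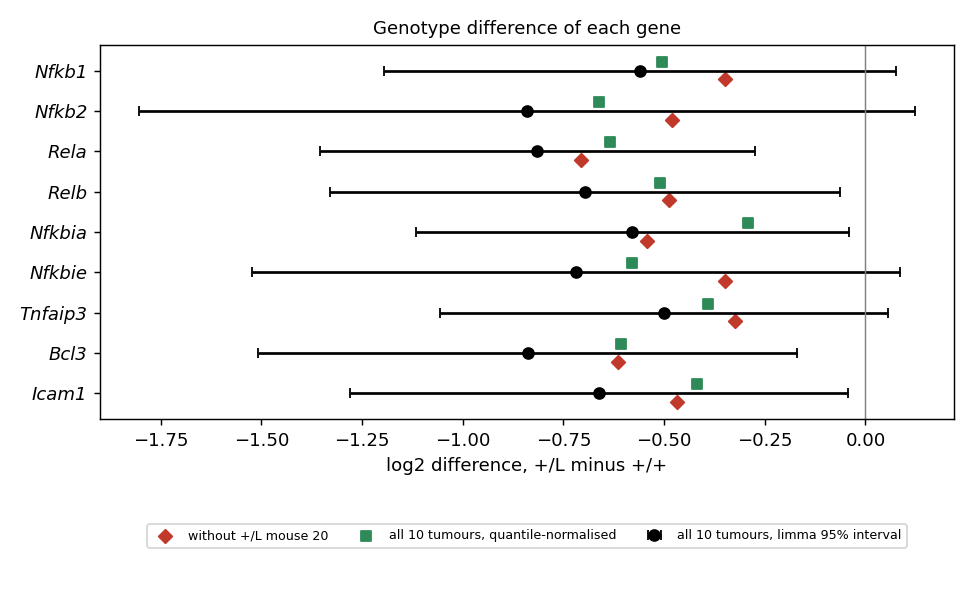
Difference of means, +/L minus +/+, in log2 units for the lead probes of 9 NF-κB genes: circles with limma 95% intervals are all 10 tumours, squares are all 10 tumours after quantile normalization, and diamonds leave out +/L mouse 20. All points lie under 0, and the intervals of Nfkb1, Nfkb2, Nfkbie and Tnfaip3 reach past it.

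Bright probes as a class leaned the same way as the members. Of the 1499 tested probes with a mean of 4 and above, where 4 lead probes fall, 78.6% had a lower mean in +/L (median difference -0.26), and of the 3222 with a mean of 2 to 4, where 4 more fall, 65.7% did (median -0.13). Of the 10880 dimmest tested probes, 37.2% did. At a limma unadjusted p under 0.05, 13.7% of the brightest class and 7.88% of the class of 2 to 4 were lower in +/L. Over all tested probes this share was 4.67%. Under quantile normalization, which gives every array the same distribution, the shares lower in the 2 brightest classes were 51.8% and 52.4%. The lean moved to dim probes: 61.7% of the dimmest class and 57.7% of all tested probes had a lower mean in +/L. All 9 lead probes still had a lower mean then (differences -0.66 to -0.29, median -0.51), and 2 of 9 had an unadjusted p under 0.05, beside 5.87% of all tested probes lower. The split over all probes at that threshold moved from 1233 lower and 870 higher to 1550 lower and 662 higher.

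**Figure D3:**
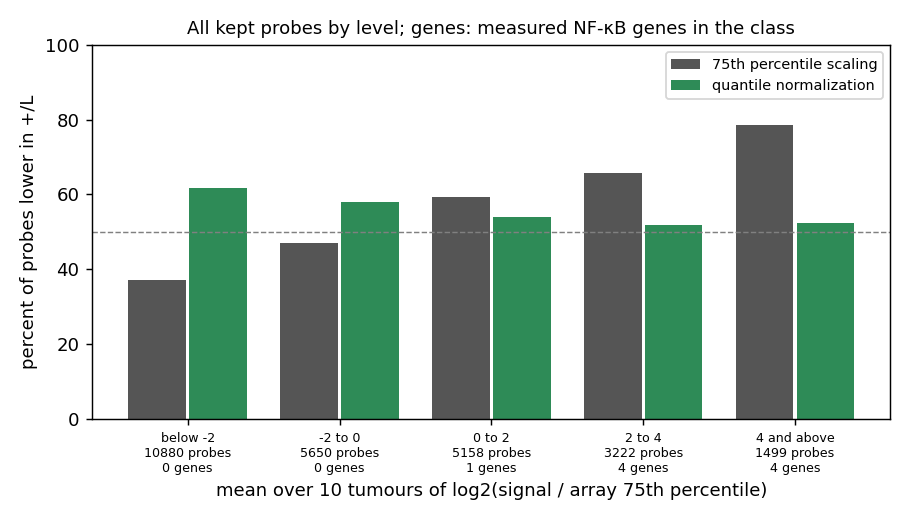
Percent of tested probes with a lower mean in +/L, by class of mean log2 level, under 75th-percentile scaling and under quantile normalization, with the number of probes and of NF-κB lead genes in each class. The share reaches 78.6% in the brightest class under percentile scaling and is 52.4% there under quantile normalization.

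Among tumours, mouse 20 stood apart. It was below the gene's mean for all 9 genes and the lowest of 10 tumours for 8 of them, with a median deviation of -1.13, while it was the lowest for 14.7% of all tested probes and for 23.0% of the 4721 probes with a mean of 2 and above. Over all tested probes it was more often the highest (28.3%), with a median deviation of 0.13. Its T cell marker score of -1.69 was the lowest of the 10, with a stromal score of -1.05 and a neutrophil score of 1.81. Relations of the members with marker scores, and a fit with the T cell score as a covariate, are given below. The part of cell content in the low values of mouse 20 itself was not tested. At the other end, +/+ mouse 101 was the highest of 10 for 5 of 9 genes (median deviation 0.69), and it was the highest for 28.1% of the 4721 bright probes. Mouse 40 was the highest for 3 genes and mouse 19 for Rela. Without mouse 20, all 9 genes were still lower in +/L (-0.71 to -0.32), and Rela, Nfkbie and Bcl3 still did not overlap between genotypes (exact permutation p = 0.0238, 0.0159 and 0.0238, where 0.00794 is the smallest possible). The share of all tested probes without overlap was not counted without mouse 20, so whether these genes exceed it is not known. By limma, 9.27% of all tested probes were lower at an unadjusted p under 0.05 then.

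Levels of the members were positively correlated over the 10 tumours, and part of this rested on mouse 20. Over the 36 pairs of lead probes, Pearson's r ran from 0.486 to 0.972 with a median of 0.789, and the median Spearman rho was 0.733. After Benjamini-Hochberg adjustment over the 36 pairs, 31 had a permutation p under 0.05 by r and 25 by rho. The median r was 0.685 for deviations from the genotype means and 0.800 for deviations from the slide means. Without mouse 20 it was 0.613, and 34 of 36 pairs stayed above 0 (range -0.164 to 0.940). With the 2 tumours farthest from the median of the first gene left out, it was 0.544. For comparison, the median r of the members with all tested probes was -0.077, and among pairs of 2641 evenly spaced probes 1.79% reached 0.789 and, without mouse 20, 7.98% reached 0.613. Probes with a mean of 4 and above were also positively correlated among themselves (median r 0.329, and 0.379 without mouse 20). For probes with a mean of 2 to 4 the median r was 0.099, and 0.104 without mouse 20.

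**Figure D4:**
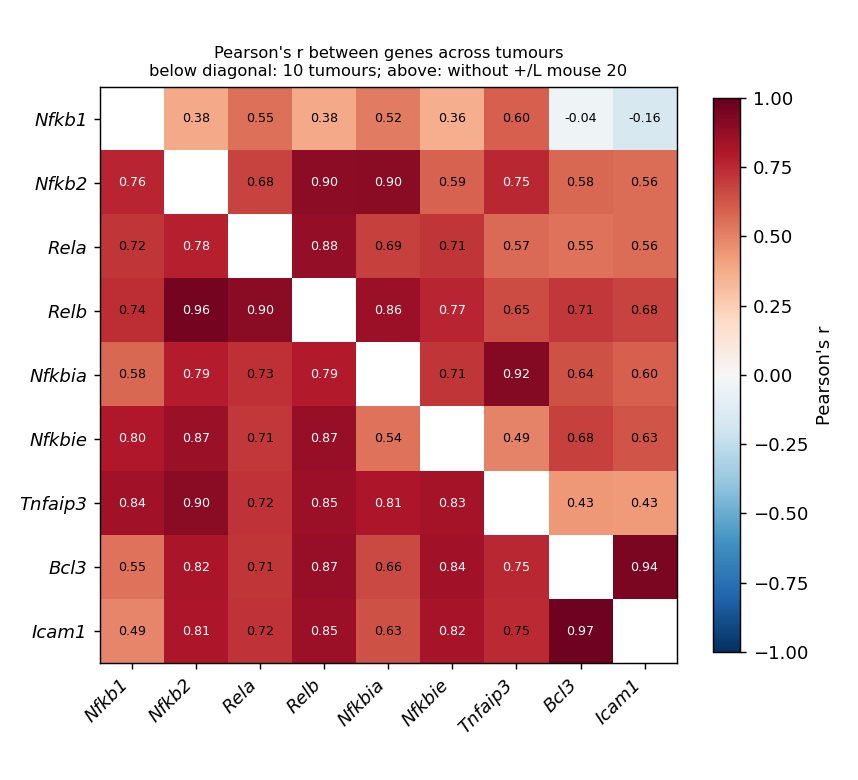
Pearson correlation of lead probes over the tumours for the 36 pairs of 9 NF-κB genes, with all 10 tumours below the diagonal and without mouse 20 above it. All 36 values are above 0 with 10 tumours, and the lowest without mouse 20 is -0.164, for Nfkb1 with Icam1.

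Within the arms, the alternative pair had the higher correlation in these tumours, a difference that was not tested. Nfkb2 and Relb, whose proteins act as a dimer, correlated at r = 0.957 (rho = 0.867, permutation p = 0.00013, adjusted p = 0.00234), at 0.835 without mice 20 and 101, at 0.898 without mouse 20 and at 0.950 within genotype. In the list of all tested probes ordered by correlation with Nfkb2, only Spin1, H2-Ab1 and Zfp341 stood between Nfkb2's own lead probe and Relb. In the list for Relb, 18 probes stood above Nfkb2, a count that includes Relb's own lead probe. The canonical pair Nfkb1 and Rela correlated at r = 0.715 (rho = 0.673, permutation p = 0.0188, adjusted p = 0.0250), at 0.537 without mice 20 and 40 and at 0.521 within genotype.

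Across the arms, Rela went with Relb at r = 0.899 (permutation p = 0.00042, adjusted p = 0.00504) and at 0.924 without its 2 farthest tumours, beside the 0.715 with its canonical partner Nfkb1. Rela and Nfkb2 correlated at 0.780 (adjusted permutation p = 0.0140). Nfkb1 reached 0.758 with Nfkb2 and 0.737 with Relb (adjusted permutation p = 0.0250 and 0.0253), but 0.380 and 0.377 without mouse 20, so those relations rest on that tumour. Of all members Relb had the highest median r with the others (0.860), and Nfkb1 had the lowest without mouse 20 (0.379).

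Among inhibitors and target, Bcl3 and Icam1 followed each other most closely of all 36 pairs. They correlated at r = 0.972 (rho = 0.855, permutation p = 3e-05, adjusted p = 0.00108), at 0.897 without mice 20 and 101 and at 0.998 within slides. In the list of 26409 tested probes ordered by correlation with Icam1, Bcl3 came directly after Icam1's own lead probe. In the list for Bcl3, only Ifi30 (r = 0.973) stood between Bcl3's own lead probe and the Icam1 lead probe. Nfkbia correlated with Tnfaip3 at 0.812 (adjusted permutation p = 0.0111) and at 0.916 without mouse 20, and with Nfkb2 at 0.789 (adjusted permutation p = 0.0123) and at 0.901. The lowest of the 36 was Nfkb1 with Icam1 (r = 0.486, permutation p = 0.149), at -0.164 without mouse 20, where Nfkb1 with Bcl3 was at -0.042. Bcl3 and Relb both lie on chromosome 7, with probes 202 kb apart. Their lead probes correlated at 0.868 (adjusted permutation p = 0.0111) and at 0.504 without mice 20 and 101.

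**Figure D5:**
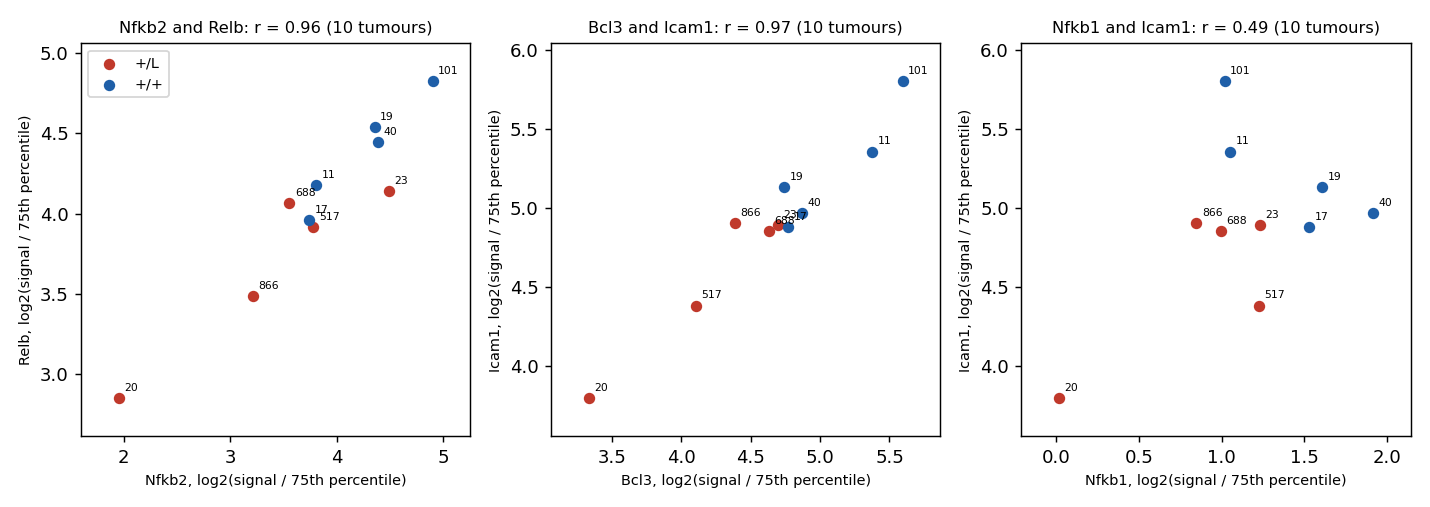
Log2 values of 3 pairs of NF-κB genes, 1 point per tumour with its mouse number, coloured by genotype. Nfkb2 with Relb (r = 0.957) and Bcl3 with Icam1 (r = 0.972) lie near a line, Nfkb1 with Icam1 (r = 0.486) does not, and mouse 20 sits at the low end of each pair.

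The named genes most like each member over the 10 tumours were picked by the highest r with its lead probe among all tested probes. They were Rasa3, Rgs2 and Fut4 for Nfkb1 (r = 0.971, 0.957 and 0.946) and Spin1, H2-Ab1 and Zfp341 for Nfkb2 (0.978, 0.965 and 0.958). Rela was followed by Acta2 and Mtap1s (0.956 and 0.952) and Relb by Fbxl8, Phc1 and Grcc10 (0.990, 0.979 and 0.978). For Nfkbia they were Ptpn6, Maf and Myo1e (0.936, 0.934 and 0.929), and for Tnfaip3 Myo9b, Spin1 and Stat6 (0.955, 0.935 and 0.932). For Nfkbie they were Anapc1, Plekhg2 and Plekho1 (0.974, 0.970 and 0.968), which dropped to 0.73 to 0.74 without mouse 20. Ifi30 came first for Bcl3 (0.973) and after Bcl3 for Icam1 (0.964), with Cog4 next for Bcl3 (0.969) and Ampd2 for Icam1 (0.958). Being the highest of 26409 values, these r are a description and were not tested.

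Other genes of the pathway were counted in the same fit. Of 85 listed genes, 76 were tested: 54 had a lower and 22 a higher mean in +/L (49.5% of all tested probes were lower), 0 passed an adjusted p of 0.05 by limma, and at an unadjusted p under 0.05 there were 9 lower and 1 higher, beside 4.67% of all tested probes lower and 7.96% in either direction. The median difference was -0.24, beside 0.0055 over all tested probes. The receptors that start the signal had a lower mean in 8 of 10 cases (median -0.38), led by Tlr2, which senses bacterial lipoproteins, at 1.30 ± 0.32 in +/L and 2.50 ± 0.73 in +/+ (difference -1.21 ± 0.34, limma adjusted p = 0.594). Tlr9, the receptor for unmethylated DNA, differed by -0.61 and Tnfrsf1b, a receptor of tumour necrosis factor, by -0.61 (limma adjusted p = 0.596 and 0.654). The ligands did not lean that way: 3 of 7 were lower and 4 higher (median 0.15), and the 3 of lowest p, Il1b, Tnfsf11 and Tnf, differed by -1.43, 0.57 and -0.44 with limma adjusted p of 0.683 to 0.849.

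Of the kinases and adaptors that carry the signal to the inhibitors, 11 of 19 were lower and 8 higher (median -0.037). Traf2 and Ripk1, adaptors of the tumour necrosis factor receptor, differed by -0.41 and -0.29 (limma adjusted p = 0.677 and 0.702). A further list, labelled as inhibitors, also held Btrc, Fbxw11 and Cul1, which act in the degradation of inhibitors. Of its genes, 11 of 12 were lower and 1 higher (median -0.19), with Btrc at -0.17 and Cul1 at -0.11. Tnip1, a partner of Tnfaip3, read 3.88 ± 0.12 and 4.37 ± 0.32 without overlap between genotypes (difference -0.49 ± 0.20, limma adjusted p = 0.609, exact permutation p = 0.00794). Fbxw11 and Pdlim2 differed by -0.27 and -0.29 (limma adjusted p = 0.735 and 0.740).

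Of the further targets, 21 of 29 were lower and 8 higher (median -0.31). The chemokine genes Ccl3 and Ccl4 differed most among the named ones, by -1.99 ± 0.52 and -1.69 ± 0.40 (limma adjusted p = 0.594 each, exact permutation p = 0.0159 each). Plek differed by -0.56 without overlap (limma adjusted p = 0.596). The 1 target higher at the unadjusted threshold, named after its value was seen, was Ier3, an early response gene, at -0.78 ± 1.07 in +/L and -2.07 ± 0.66 in +/+ (difference 1.28 ± 0.51, limma adjusted p = 0.596). These list counts stand beside the brightness classes above, and no set was tested.

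Marker lists of other cells were set beside the members. Neutrophil markers, 8 of 10 of them tested, scored higher by 1.58 in +/L (-1.49 to 2.90, against -2.83 to 1.50 in +/+). Stromal markers scored higher by 0.72 in +/L (-1.05 to 1.83, against -1.52 to 0.48). All 10 stromal markers but only 3 of the 8 neutrophil markers were well above background in all 10 tumours. Each of the 8 was so in at least 8 tumours. Macrophage and endothelial scores were higher by 0.11 and 0.14 in +/L. A lower mean in +/L was found for 1 of 8 neutrophil, 4 of 10 stromal, 8 of 12 macrophage and 4 of 12 endothelial genes. The macrophage score thus ran against most of its genes. B cell markers scored lower by 0.19 in +/L (11 of 14 genes lower) and T cell markers by 0.23 (12 of 14), the same direction as the members. Immediate early genes scored lower by 0.45 in +/L (-0.46 to 0.04, against -0.22 to 0.80) and housekeeping genes by 0.29 (-0.38 to 0.24, against -0.30 to 0.51). Over 81 relations between 9 members and 9 list scores, 5 had a permutation p under 0.05 and 0 had one after Benjamini-Hochberg adjustment (smallest adjusted p = 0.660). The strongest was Bcl3 with the neutrophil score (r = -0.715, rho = -0.648, permutation p = 0.0167), which was -0.412 without mice 11 and 101. Relb and Icam1 also ran against the neutrophil score (r = -0.643 and -0.662, permutation p = 0.0412 and 0.0326). Bcl3 and Icam1 followed the housekeeping score (r = 0.636 and 0.628, permutation p = 0.0444 and 0.0470). Those 2 were 0.844 and 0.823 without mouse 20, and 0.23 and 0.22 without mice 11 and 101. Nfkbie followed the T cell score at r = 0.639 (rho = 0.370, permutation p = 0.0556), and at 0.071 without mouse 20. With the endothelial, macrophage, T cell, immediate early or housekeeping score as a covariate, all 9 lead probes stayed lower in +/L, and 6, 5, 4, 4 and 2 of them had an unadjusted p under 0.05 (5%, 5.13%, 4.62%, 4.13% and 3.24% of all tested probes were lower at it). The part of neutrophil and stromal cells in the member differences was not tested.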

How the data were processed

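Cy3-labelled RNA of 10 lymphomas (5 +/L, 5 +/+) was read on 1-colour Agilent arrays with 45018 spots (43379 non-control spots, 41174 probes). Per the file headers, the authors extracted spot intensity with Feature Extraction 10.5.1.1, which gives background-subtracted intensity and per-spot calls against background and of outliers. Those outlier calls, which the deposited files hold as flags, removed spots here. The deposited table of log2 values, whose scale was read from the values and whose normalization no label or header states, served as an alternative.

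From each array the log2 intensity minus the log2 of its 75th percentile was computed, spots of a probe were averaged, and probes well above background (over 50% of spots) on at least 3 of 10 arrays were kept: 26409 after 69 were dropped for outlier spots. Genotypes were compared with limma 3.58.1 (R 4.3.3) with Benjamini-Hochberg adjustment over all kept probes, and with exact two-sided permutation over samples. Correlations used 100000 permutations. Of the 45 planned pairs, those with Rel had no measured value, which left 36. On simulated data with 200 changed probes of 26409 in 5 against 5 arrays, 12% of log2 changes of 1 and 50% of those of 2 passed the adjusted threshold. The number of arrays limits the precision.

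Mice are separate animals by label. Slides were taken from the file headers; the description label gives another slide for mice 866 and 17, which leaves 1 slide with +/+ tumours only. Named genes were all members with every probe, the 3 genes of lowest unadjusted p in each pathway list, and the 3 named genes of highest r with each member; 2 genes that this rule names are not reported here. The members, lists and tests were chosen with earlier results of these data known. Alternatives covered scaling, normalization, the dim-probe filter, probe rule, limma options, covariates, slides and left-out mice.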

Additional observations from a re-analysis of the deposited data

Results flagged for a closer look

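In 28 sets of 5 tumours (14 probes in 2 genotypes), the highest or lowest tumour's gap to its neighbour was compared with the range of the set, and 2 sets passed Dixon's 95% value for 5 samples, where chance gives about 1 in 20. Nfkbia in +/L mouse 23 read 6.42, above the other +/L tumours at 5.79 to 5.97 (gap over range 0.714). Nfkbie in +/L mouse 20 read 1.34, below the other +/L tumours at 3.09 to 3.29 (0.897).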

How the results depend on the processing

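All 9 lead probes kept a lower mean in +/L under each of the 30 alternatives run, including each mouse left out in turn (9 to 9). Of all probes in the fit, the share lower in +/L ran from 35.9% with no dim-probe filter to 57.7% with quantile normalization. The alternatives reuse the same tumours and are not independent of each other. No lead probe passed an adjusted p of 0.05 by limma in any of them (lowest 0.259). The count of all probes past that threshold, 0 in the chosen setting, was 1 with normexp and quantile normalization and 1 with the deposited table, and 0 to 3 with each mouse left out (3 without +/L mouse 517). The median pair correlation of 0.789 was 0.613 without mouse 20, 0.613 to 0.809 with each mouse left out, and 0.685 to 0.800 under the other alternatives. Lead probes at an unadjusted p under 0.05 numbered 5 in the chosen setting, 2 with normexp, quantile normalization or the deposited table (beside 5.72%, 5.87% and 5.53% of all tested probes lower at it), 3 with the header slide as a block, and 0 with the slide of the description label as a block or with age as a covariate. The covariate fits with endothelial, macrophage, T cell, immediate early and housekeeping scores and the brightness classes were added after seeing the data. No paired analysis was possible because the mouse numbers are not shared between genotypes.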
